A study of Mus musculus with 4 samples.

Results

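The genes described here encode the subunits, activators and assembly factors of the proteasome. They were taken by symbol, as every protein-coding gene with curated RefSeq transcripts on mm10 whose symbol begins with Psma, Psmb, Psmc, Psmd, Psme, Psmf or Psmg followed by a number, which gave 51 of 21000 genes. Of the 10494 RUNX1 peaks in the deposited list, 35 had their nearest transcription start site (TSS) in this set. RUNX1 ChIP-seq finds the stretches of fixed chromatin that RUNX1 occupies, by enriching them with an antibody and sequencing them. The chromatin came from ovaries of CD1 (CD-1) mouse embryos at E14.5, freed of the mesonephros and pooled at 80 to 100 ovaries per ChIP by the labels, while the study's methods give a larger pool. For each of 2 RUNX1 ChIP replicates, 20 to 30 μg of chromatin and 10 μl of antibody were used, and 2 input replicates without antibody served as background. The replicates were merged before peaks were called, so each peak has 1 fold and 1 p-value of the peak caller (caller p) computed on the merged reads, no replicate error exists for any value below, and no difference can be tested. Whole ovaries hold supporting, germ and other somatic cells, and a peak in few cells cannot be told apart from a weak peak in many.

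The proteasome is the large protease that degrades proteins tagged with ubiquitin. Its barrel-shaped 20S core has outer rings of alpha subunits and inner rings of beta subunits, of which Psmb5, Psmb6 and Psmb7 carry the catalytic sites. In immune cells and after interferon these are exchanged for Psmb8, Psmb9 and Psmb10 to form the immunoproteasome, and the thymus has a further form with Psmb11. The 19S cap has a ring of ATPases that unfold substrates and a set of non-ATPase subunits that bind and remove ubiquitin. Proteasome genes are expressed in nearly all cells, and the factor NFE2L1 is known to raise them together when proteasome activity falls short.

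RUNX proteins bind DNA at a short core, here TGTGGT or TGCGGT on either strand, and the sequences that carry this comparison are the peaks of highest fold and the cores themselves. The stretches of the 3 member peaks of highest fold are printed first, from the GRCm38 reference, with matches in capitals. In the Psmd4 stretch the capitals mark RUNX cores (ACCACA is TGTGGT read from the other strand) and 1 forkhead site (TATTTAC). The Psmb9 stretch, the part of that peak outside annotated exons, held no RUNX core and no ETS, NFE2L or forkhead site. The capitals in the Psme3ip1 stretch mark 3 cores (ACCGCA is TGCGGT read from the other strand).
Psmd4 chr3:95053790-95054089 plus strand: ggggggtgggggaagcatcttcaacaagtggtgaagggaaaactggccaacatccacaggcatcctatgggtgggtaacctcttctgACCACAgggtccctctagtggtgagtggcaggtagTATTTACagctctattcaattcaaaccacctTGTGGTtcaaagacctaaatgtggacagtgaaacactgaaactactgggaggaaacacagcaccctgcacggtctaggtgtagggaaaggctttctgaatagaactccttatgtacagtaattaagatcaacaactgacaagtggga
Psmb9 chr17:34187331-34187555 plus strand: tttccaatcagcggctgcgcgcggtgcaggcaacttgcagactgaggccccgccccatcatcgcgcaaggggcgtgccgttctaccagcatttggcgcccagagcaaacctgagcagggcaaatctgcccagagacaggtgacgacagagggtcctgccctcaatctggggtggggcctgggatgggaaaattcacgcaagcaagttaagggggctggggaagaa
Psme3ip1 chr8:94601080-94601379 plus strand: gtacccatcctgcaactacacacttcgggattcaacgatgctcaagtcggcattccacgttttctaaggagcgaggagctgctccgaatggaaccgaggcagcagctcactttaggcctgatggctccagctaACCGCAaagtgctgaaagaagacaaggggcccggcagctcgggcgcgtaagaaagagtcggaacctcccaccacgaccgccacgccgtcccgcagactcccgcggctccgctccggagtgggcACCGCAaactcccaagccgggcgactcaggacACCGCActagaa

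The RUNX cores of the other 18 member peaks that held any follow with the bases around them, each on the strand that reads TGTGGT or TGCGGT, with the core in capitals. They are shown so that the spelling of the core and its flanks can be compared from gene to gene.
Psmd1 chr1:86064693-86064716 plus strand: ccctggaggTGCGGTagagcaagc
Psmb7 chr2:38624906-38624929 minus strand: aaccctcctTGTGGTtttagtgat
Psmd14 chr2:61656968-61656991 minus strand: ggaagcctaTGCGGTaaagaccca
Psmb4 chr3:94886830-94886853 plus strand: tggccgggaTGCGGTaaaactgcc
Psmd4 chr3:95046622-95046645 minus strand: agtcaaggtTGTGGTttctggaga
Psma5 chr3:108257186-108257209 plus strand: ctgtggcggTGTGGTtgattaggg
Psmb2 chr4:126677519-126677542 minus strand: gtctagaggTGTGGTttggaaacg
Psmc2 chr5:21786912-21786935 minus strand: ctgcgcctcTGCGGTgccagcgcc
Psmd13 chr7:140882323-140882346 minus strand: ctcacgggtTGCGGTcgtcaaggt
Psmd7 chr8:107588285-107588308 minus strand: gctgctcagTGTGGTggatcattt
Psmd7 chr8:107588397-107588420 minus strand: ctgtgtcgcTGCGGTtgctggtgt
Psma4 chr9:54950673-54950696 minus strand: ggctttggcTGCGGTctgtattag
Psmc3ip chr11:101095596-101095619 plus strand: agtgctgccTGTGGTgagcggtcc
Psme3 chr11:101316080-101316103 minus strand: cttgtgcccTGTGGTggtcaacct
Psma6 chr12:55398698-55398721 minus strand: cgcccggccTGCGGTccgcgggct
Psmd6 chr14:14120805-14120828 minus strand: tcgcgcagcTGCGGTttctgctta
Psmd2 chr16:20651931-20651954 minus strand: tctccccggTGCGGTgggcagtac
Psmb1 chr17:15498169-15498192 minus strand: ctgtgcagcTGCGGTtttcgcctt
Psmb8 chr17:34198408-34198431 plus strand: ctggatctgTGCGGTgccgctcgg

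RUNX1 peaks lay at the start of a majority of proteasome genes. A peak was nearest to the TSS of 29 of the 51 genes (56.9%), against 39.1% of all protein-coding genes. Counting every gene with a peak within 1 kb of any of its TSSs, from the edge of the peak, gave 30 genes (58.8%), against 37.4% of all protein-coding genes. Within 10 kb the count was 34 genes (66.7%, against 43.9%), and within 50 kb it was 45 genes (88.2%, against 62.8%). Other families of broadly expressed genes had shares of a like size. Within 1 kb of a TSS, a peak was found for 54 of 77 cytosolic ribosomal protein genes (70.1%), 53 of 78 mitochondrial ribosomal protein genes (67.9%) and 22 of 39 Nduf genes (56.4%), which encode parts of respiratory complex I. The proteasome genes thus stood above the average gene and within the range of these 3 families. The median fold of the strongest peak per gene was 8.56 for the proteasome genes, 7.4, 5.86 and 6.35 for the 3 families in the same order, and 6.66 for all protein-coding genes with a peak.

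**Figure D1:**
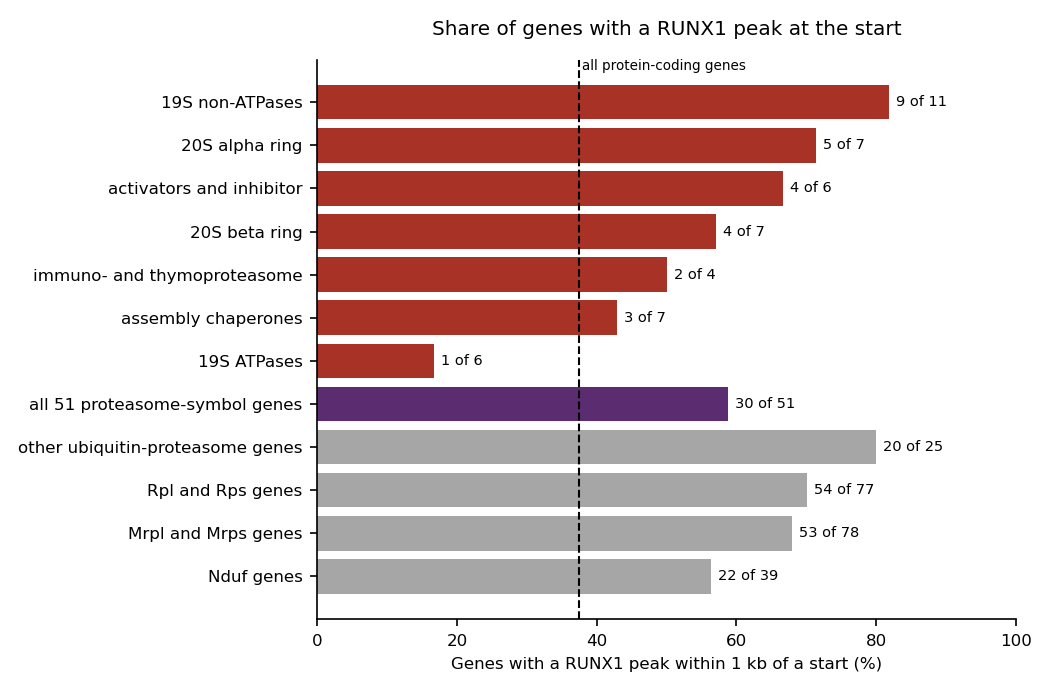
Share of genes with a RUNX1 peak within 1 kb of a TSS (x axis, percent of genes) for 7 classes of proteasome genes (red), all 51 genes (purple) and 4 comparison sets (grey), with the number of genes beside each bar and all protein-coding genes (37.4%) as the dashed line. The 19S non-ATPases stand highest among the proteasome classes, with 9 of 11 genes, and the 19S ATPases lowest, with 1 of 6.

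The 19S cap showed the most uneven pattern among its own parts. A peak lay within 1 kb of the TSS of 9 of the 11 non-ATPase genes (81.8%) but of 1 of the 6 ATPase genes (16.7%). In the 20S core the counts were 5 of 7 alpha genes (71.4%) and 4 of 7 beta genes (57.1%). Among the remaining classes a peak lay within 1 kb of 4 of 6 activator and inhibitor genes, 3 of 7 assembly chaperone genes and 2 of 4 immunoproteasome and thymoproteasome genes. For the 31 constitutive subunits of the 26S proteasome together the count was 19 (61.3%), and for the 5 tissue-restricted forms it was 2. These classes are small, and differences between them were not tested. The symbol rule also took in a pair of genes that are not part of the proteasome. Psmc3ip acts in meiotic recombination and Psme3ip1 encodes a protein that binds the activator PSME3, and both had a peak within 1 kb. Without them, 28 of 49 genes (57.1%) had one.

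**Figure D2:**
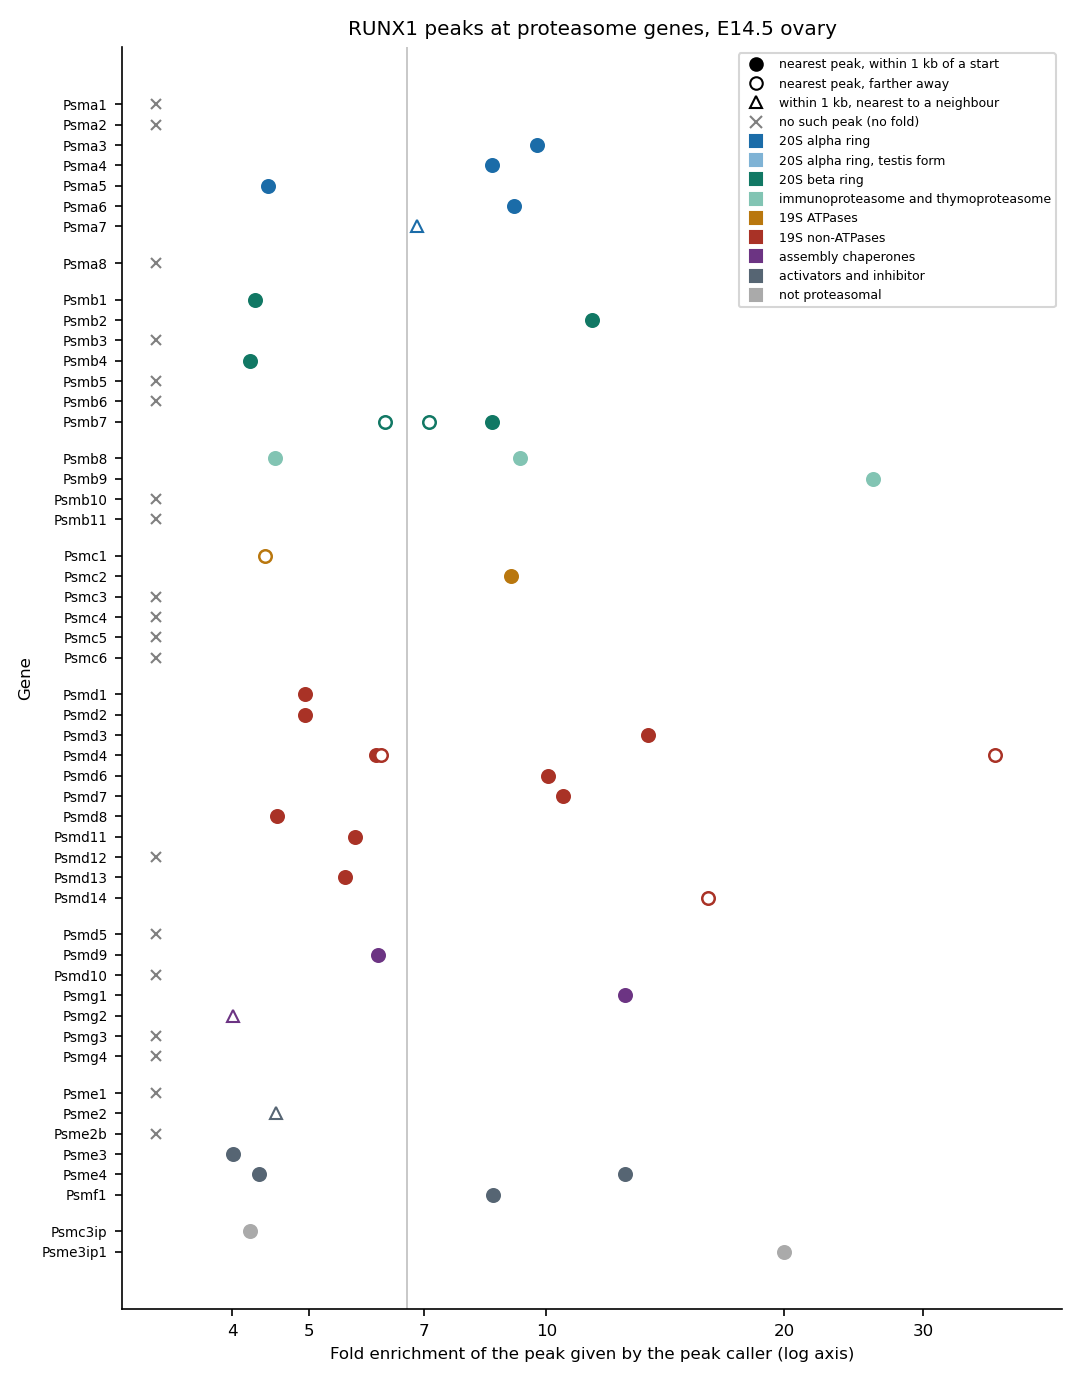
Fold enrichment of each RUNX1 peak (x axis, log scale) at each of the 51 genes (y axis, grouped and coloured by class). Filled circles are peaks nearest to the gene and within 1 kb of its TSS, open circles are nearest peaks farther away, triangles are peaks within 1 kb that are nearer to a neighbouring gene, crosses are genes with neither and carry no fold, and the grey line is the median strongest fold of all protein-coding genes with a peak (6.66). The highest values belong to Psmd4 (37.02, distal), Psmb9 (25.92) and Psme3ip1 (19.99).

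Among the alpha-ring genes, which form the gated outer rings of the core, the folds of the peaks at the start ran from 4.44 to 9.72. Psma3 had a peak of fold 9.72 (caller p 5.22e-27) that began 4 bp inside the gene, at chr12:70974627-70974926. Psma6 had a peak of fold 9.1 (caller p 9.63e-36) over the second of its TSSs, at chr12:55398581-55398880, while its first TSS lay 14359 bp away from it. The peak of Psma4 reached 8.52 (caller p 2.46e-14) and ended 54 bp before its TSS. The gene AY074887 starts on the other strand, downstream of that TSS and also within 1 kb of the peak. That of Psma5 was weak at 4.44 (caller p 3.52e-09), 99 bp into the gene. Psma7 had a peak of 6.86 (caller p 2.82e-31) 172 bp upstream, but this lay closer to Ss18l1, whose TSS is 19 bp from that of Psma7 on the other strand. Psma1 and Psma2 completed the ring without a peak at the start, with the closest peaks 21352 bp and 549570 bp away. Psma8, the form that replaces Psma7 in male germ cells, had its closest peak at 23060 bp.

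The constitutive beta genes split by fold. Psmb2 had the strongest promoter peak of the ring, 11.42 (caller p 5.91e-51), over its TSS at chr4:126677423-126677722. Psmb7, which encodes the subunit with trypsin-like activity, was nearest to 3 peaks. One of fold 8.52 (caller p 2.46e-14) began 9 bp into the gene at chr2:38643598-38643897, one of 7.1 (caller p 9.73e-13) lay in intron 5 and one of 6.25 (caller p 2.09e-13) lay 14549 bp upstream. The upstream peak lies between Psmb7 and Nr5a1, the gene of a nuclear receptor needed for gonad development, and is 33902 bp past the end of Nr5a1 and 53480 bp from its TSS. Psmb1 (4.27, caller p 1.07e-10, over the TSS) and Psmb4 (4.21, caller p 4.88e-09, 56 bp into the gene) had weak peaks. Psmb3 had none within 1 kb, its closest being a peak of 6.54 at 3037 bp nearest to Pcgf2. Psmb5 and Psmb6, which encode the other constitutive catalytic subunits, had none within 10 kb, with the closest peaks 11971 bp and 14516 bp away. The peak closest to Psmb5 had a fold of 69.42 (caller p 4.57e-108) but covered the TSS of 4931414P19Rik.

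The immunoproteasome genes included the strongest promoter peak of the whole set. The peak at chr17:34187329-34187628 had a fold of 25.92 (caller p 1.35e-155), rank 148 by fold among the 10490 peaks on assembled chromosomes. It covered the TSS of Psmb9, the immune form that replaces Psmb6, and also that of Tap1, a peptide transporter for antigen presentation that starts 226 bp away on the other strand, so the peak was nearest to both. Psmb8, the immune form that replaces Psmb5, lies close by in the same cluster. It had a peak of 9.26 (caller p 4.06e-22) 280 bp upstream, at chr17:34197616-34197915, and one of 4.53 (caller p 1.12e-08) 119 bp into the gene. The next gene, Tap2, had a peak of 6.48 (caller p 2.23e-17) over its TSS. In contrast, Psmb10, the immune form of Psmb7, and the thymic Psmb11 had no peak closer than 27276 bp and 19286 bp. The catalytic pairs thus differed from each other. Psmb8 and Psmb9 had a promoter peak where Psmb5 and Psmb6 had none, and Psmb7 had one where Psmb10 had none.

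The ATPases of the cap pair up into a ring that threads substrates into the core. Only Psmc2 of the 6 had a peak within 1 kb. Its second TSS was covered by a peak of 9.02 (caller p 4.49e-24) at chr5:21786720-21787019, and its first TSS had a peak of 4.7 at a distance of 78 bp that lay nearer to Dnajc2. Psmc1 was nearest to a weak peak of 4.4 (caller p 1.66e-07) located 8274 bp upstream. The other ATPase genes were far from any peak, with distances of 16251 bp for Psmc3, 20316 bp for Psmc5, 21167 bp for Psmc6 and 120567 bp for Psmc4.

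The non-ATPase genes of the cap held peaks over a wide range of fold. Psmd3, a scaffold subunit of the lid, had a peak of 13.46 (caller p 3.25e-60) that ended 130 bp before its TSS. Peaks covered the TSSs of Psmd7, partner of the deubiquitinase in the lid, at 10.49 (caller p 3.92e-66), and of Psmd6, another lid subunit, at 10.05 (caller p 4.3e-25). These 3 formed the upper group at the start. The lower group ran from 4.56 to 6.08. It comprised Psmd4, the ubiquitin receptor (6.08, caller p 2.02e-11), and the lid subunits Psmd11 (5.72, caller p 2.2e-15, in intron 1), Psmd13 (5.55, caller p 1.95e-13) and Psmd8 (4.56, caller p 5.25e-12). Psmd1 and Psmd2, the large scaffold subunits of the base, were also in it, and both had a fold of 4.94 with a caller p of 6.82e-13. Psmd12 had no peak within 1 kb, and its closest lay 9375 bp away. The peak at the start of Psmd13 was nearest to Sirt3, a mitochondrial deacetylase gene, as well, since their TSSs lie 85 bp apart on opposite strands. The part of this shared promoter outside annotated exons is printed with its RUNX core in capitals on the strand opposite to Psmd13.
Psmd13 chr7:140882310-140882393 plus strand: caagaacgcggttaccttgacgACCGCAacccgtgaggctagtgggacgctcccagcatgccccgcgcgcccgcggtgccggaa

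By fold, the strongest peaks assigned to cap genes were distal. By caller p, the strongest were instead those at the starts of Psmd7 (3.92e-66) and Psmd3 (3.25e-60). Psmd4 was nearest to a peak of fold 37.02 (caller p 1.07e-24) at chr3:95053790-95054089, rank 60 of 10490 by fold and the highest of all 35. It lay 11176 bp upstream of Psmd4 but 4441 bp past the end of Pip5k1a, a lipid kinase gene. Its GC content was 47.7%, against a median of 64.3% over the 35 peaks. A further peak of 6.17 (caller p 3.11e-10) lay 3941 bp upstream of Psmd4. Psmd14, the deubiquitinase of the lid, was nearest to a peak of 16.04 (caller p 1.47e-22) at 54666 bp, which was 2558 bp past the end of Tank, and had none at its own start. Nearness in sequence was the sole basis for these assignments, and which gene such a peak serves was not tested.

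Activators dock on the core in place of the cap. Psme4, the gene of the large activator PA200, had a peak of 12.59 (caller p 1.16e-25) in intron 1, 301 bp from the TSS, and one of 4.32 (caller p 5.12e-08) over the TSS. Psmf1, the gene of an inhibitor of the core, had a peak of 8.56 (caller p 3.59e-22) over its TSS. Psme3, the nuclear activator, had the peak of lowest fold in the set, 4.01 (caller p 6.33e-09), which is also the lowest fold in the list. Around the interferon-responsive activators Psme1 and Psme2, the peaks were assigned to neighbours. Psme2 had a peak of 4.54 at 763 bp nearest to Rnf31, and Psme1 fell just outside 1 kb with a peak of 4.38 at 1771 bp nearest to Fitm1. Psme2b, a copy of Psme2 on another chromosome, had its closest peak at 107700 bp.

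The assembly chaperones showed 1 strong peak. Psmg1, which helps to build the alpha ring, had a fold of 12.59 (caller p 1.16e-25) over its TSS, and Psmd9, a chaperone of the base, had 6.11 (caller p 9.2e-16). Psmg2, the partner of Psmg1, had a peak of 4.01 at 193 bp that was nearest to Cep76. No peak lay within 10 kb of the core chaperones Psmg3 (34915 bp) and Psmg4 (32721 bp) or of the base chaperones Psmd5 (68407 bp) and Psmd10 (356569 bp). Of the genes outside the proteasome, Psme3ip1 had a peak of 19.99 (caller p 6.12e-50) in intron 1 with 3 RUNX cores. The TSS of Rspry1, 215 bp from a TSS of Psme3ip1 on the other strand, also lay within 1 kb of this peak. Psmc3ip had a peak of 4.21 (caller p 4.88e-09) that ended 92 bp before its TSS.

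As a group the 35 peaks were close to gene starts, with a somewhat higher median fold and a wider spread than the list. Of them 29 (82.9%) lay within 1 kb of the TSS, against 76.0% of all 10490 peaks, and 15 (42.9%) covered it, against 34.2%. Their median fold was 7.1, with quartiles of 4.75 and 10.27, against a median of 6.41 and quartiles of 5.02 and 8.89 for all peaks. The lower quartile thus lay below that of the list and the upper one above it. In the top 10 percent of the list by fold were 5 of the 35 peaks, and in the lowest 10 percent were 5. The 29 peaks at the start had a median of 8.52 (quartiles 4.56 and 10.05). For the 7753 other peaks within 1 kb of a protein-coding TSS it was 6.48 (quartiles 5.09 and 8.84). Of the 35 peaks 17 (48.6%) had a fold of 8 or more, against 32.1% of all peaks. At this limit 17 of the 51 genes were nearest to a peak, against 13.8% of all protein-coding genes, and 15 had one within 1 kb, against 12.6%. Their midpoints lay a median of 115.5 bp downstream of the TSS, and 11 of 29 (37.9%) lay upstream, against 107.5 bp and 29.7% for the other peaks near starts. These are descriptions of 1 merged list. Part of the peaks at the start are shared with a neighbour, since 11 of the 51 genes (21.6%, against 13.9% of all protein-coding genes) have a TSS of another gene within 1 kb on the other strand. Of these 11 genes 8 had a peak within 1 kb (72.7%), and of the 40 without such a partner 22 had one (55.0%). Over all protein-coding genes the shares were 65.7% with and 32.9% without a partner.

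**Figure D3:**
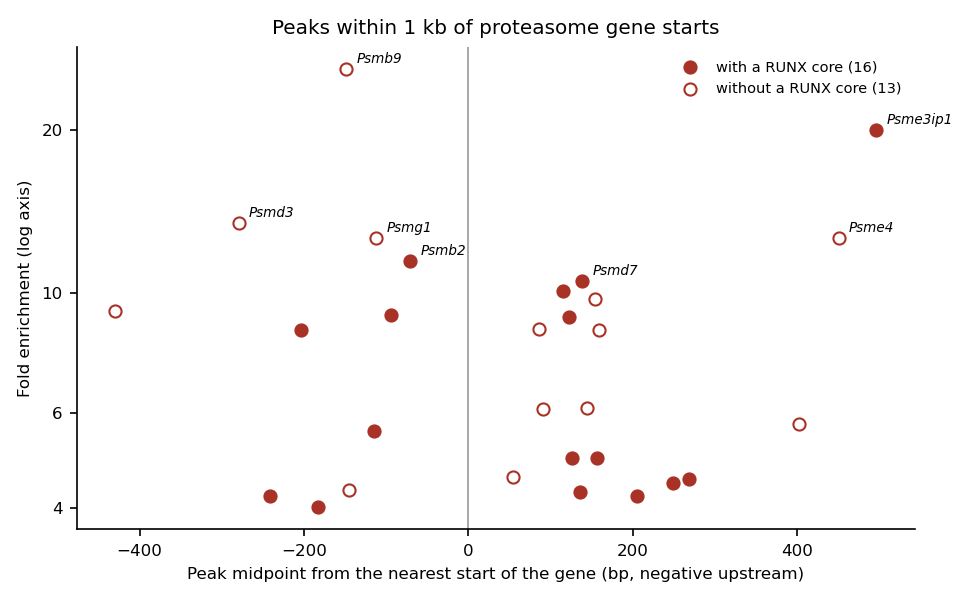
Position of the midpoint of each of the 29 RUNX1 peaks within 1 kb of a proteasome gene TSS (x axis, bp, negative upstream) against its fold (y axis, log scale). Filled points hold a RUNX core (16 peaks) and open points do not (13 peaks), and the strongest of the peaks at the start, that of Psmb9, is among those without one.

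RUNX cores were common in these peaks but did not follow their fold. A core was found in 20 of the 35 peaks (57.1%), against 39.9% of all peaks, and in 16 of the 29 at the start (55.2%), against 33.8% of the other peaks near starts. In windows of 300 bp placed 1 kb to either side of the member peaks the share was 24.6% (17 of 69). The spelling TGCGGT was in 13 of the 35 peaks (37.1%, against 23.7% of all peaks) and in none of the 69 windows. TGTGGT was in 8 peaks (22.9%, against 19.5% of all peaks and 24.6% of the windows). TGCGGT holds a CpG, and the windows were not matched on base composition. The 35 peaks held 24 cores, of which 19 (79.2%) had their centre within 75 bp of the peak midpoint, against 66.2% of the 5193 cores in all peaks. Reordered letters of the core served as a control. GTGTCG or GTGTTG was in 17.1% of the 35 peaks and 16.2% of all peaks, and TGCGTG or TGTGTG in 22.9% and 27.5%. The median fold was 6.64 for the 20 peaks with a core and 8.52 for the 15 without. Psmb9, Psmd3, Psmg1 and the stronger peak of Psme4 were among those without, while Psmb2, Psmd7 and Psmd6 held cores, as the printed sequences show. Of the 6 peaks farther than 1 kb from the TSS, 4 held a core and 3 held TGTGGT, among them both distal peaks of Psmd4. Over all 2521 peaks farther than 1 kb from a TSS these shares were 57.8% and 39.3%, and the counts of 4 and 3 of 6 lie near them.

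Sites of other factor families were searched in the same 300 bp, on both strands. The ETS site CCGGAAGT was in 4 of the 35 peaks (11.4%, against 4.7% of all peaks), and each of the 4 had its centre near the TSS, at positions from -49.5 bp to 19.5 bp. They belong to Psmc2, Psmd13, Psme4 and Psma6, and are printed with the site in capitals, on the strand that reads CCGGAAGT.
Psmc2 chr5:21786714-21786737 minus strand: cttccccaCCGGAAGTagctccgc
Psmd13 chr7:140882380-140882403 plus strand: ccgcggtgCCGGAAGTgagcgagc
Psme4 chr11:30771714-30771737 plus strand: gccccgccCCGGAAGTgacttgag
Psma6 chr12:55398833-55398856 minus strand: gccccctcCCGGAAGTtatggcta
In the RefSeq promoters of GRCm38.p6, which run from 250 bp before to 50 bp after the TSS and were matched for 43 of the 51 genes, the site was in 9 (20.9%), against 5.9% of the promoters of 16853 protein-coding genes. The site was present both with and without RUNX1 peaks. It was in 6 of 24 promoters with a peak within 1 kb and 3 of 19 without, those of Psmg3, Psmd12 and Psmc1. Of the promoters of all protein-coding genes with a peak within 1 kb, 9.8% held it. RUNX cores were in 25.6% of the member promoters and 24.0% of all. With a peak within 1 kb the member share was 33.3% (26.3% for all genes with one), and without it was 15.8%. The element of NFE2L1 and NFE2L2, TGACNNNGC, was in 9 of the 35 peaks (25.7%, against 14.3% of all peaks and 5.8% of the windows), and in 14.0% of member promoters, against 15.0% of all. For this element the member share was 8.3% with a peak within 1 kb (17.7% for all genes with one) and 21.1% without. Of the remaining sites, CCAAT for NFY was in 31.4% of the peaks (23.5% of all peaks), GGGCGG for SP factors in 40.0% (57.0%) and TGACGTCA for CREB and ATF factors in 5.7% (1.9%). TATTTAC or TGTTTAC for forkhead factors was in 1 peak (2.9%, against 3.2%), the distal peak of Psmd4. Neither CGCATGCG for nuclear respiratory factor 1 (1.4% of all peaks) nor AAGATGGCG for YY1 (2.4%) was in any of the 35. Such matches are letters in a window and do not show that a factor was bound.

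**Figure D4:**
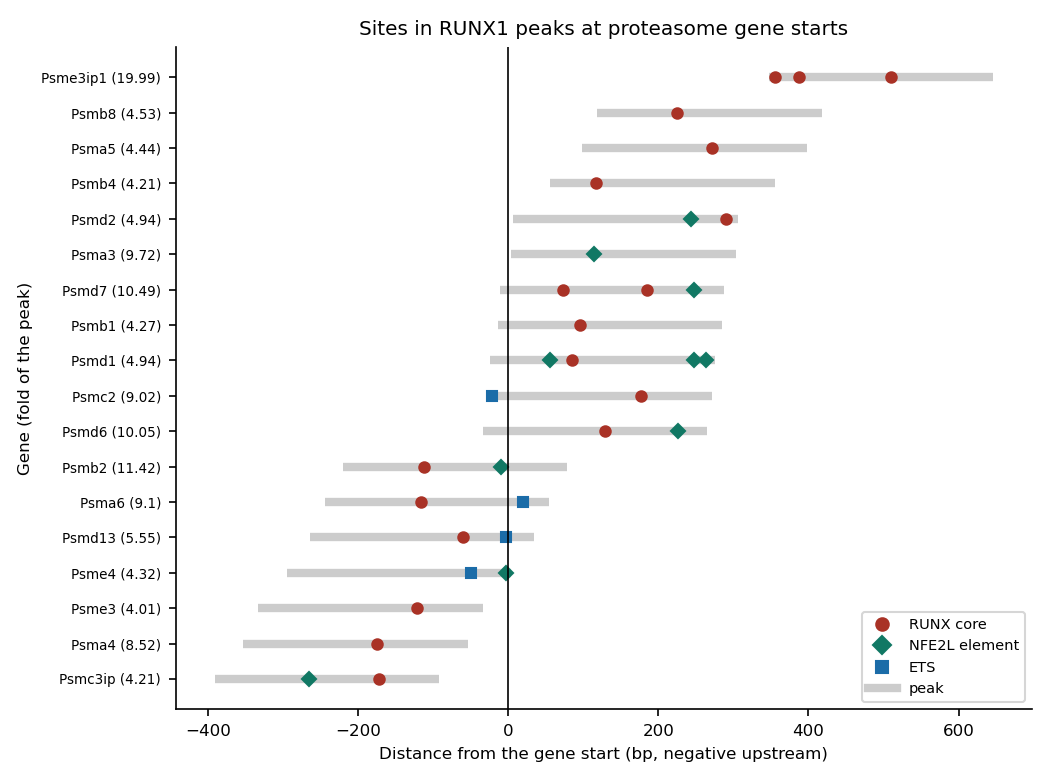
Positions of RUNX cores (circles), NFE2L elements (diamonds) and ETS sites (squares) along the RUNX1 peaks (grey bars) that lie within 1 kb of a proteasome gene TSS and hold any of these, as distance from the TSS (x axis, bp, negative upstream), with the fold of the peak beside each gene. The 4 ETS sites sit within 50 bp of the TSS, and both ETS sites and RUNX cores lie on either side of it.

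Other genes of the ubiquitin and proteasome pathway were also counted, as a list of 25 that the symbol rule does not take. The list was chosen with earlier results of these data known, so its share is a description only. A peak lay within 1 kb in 20 cases (80.0%, against 37.4% of all protein-coding genes). The share was 70.1% for cytosolic ribosomal protein genes, 67.9% for mitochondrial ones and 56.4% for Nduf genes. The median strongest fold of the list was 8.19 (6.66 for all). Among the strong peaks was that of Txnl1, a thioredoxin-like protein that binds the cap (18.2, caller p 4.03e-52). A fold of 14.81 was shared by the ubiquitin gene Ubb, Vcp, the segregase that extracts ubiquitin-tagged proteins, and Akirin2, a nuclear import factor of the proteasome. Nfe2l2, the stress-response relative of Nfe2l1, had a fold of 10.31 (caller p 4.16e-26). Nfe2l1 itself had a peak of 8.23 (caller p 3.18e-23) with a RUNX core, and the cap subunits outside the symbol rule, Adrm1 and Sem1, had 4.07 and 6.24. Rps27a, Uba1, Uba6 and Ubqln2 were among the genes nearest to no peak.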

How the data were processed

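RUNX1 ChIP-seq was analysed from the 1 peak list deposited for the series. By the study's methods, the authors filtered single-end reads on base quality, mapped them to mm10 at unique positions, removed duplicates, merged replicates, called peaks, fixed the width of every peak at 300 bp about the centre, and dropped peaks that did not stand out from the input or from nearby signal. Bowtie 1.2, Picard 1.110, HOMER 4.9 and bedtools 2.24.0 are listed in the submitters' processing notes. The deposited peak name holds a fold enrichment (a ratio) and a p-value from the authors' peak caller. The file does not label them, and they were read as such from their order and range (fold 4.01 to 358.22, p up to 2.44e-06). The file gives no read counts, so the depth behind a peak is unknown, and neither replicate nor input has values of its own.

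Peaks were assigned to the gene whose curated RefSeq TSS (45756 transcripts of 26180 genes, GRCm38.p6, the same assembly as mm10) is nearest to the peak edge, with ties kept. The 4 peaks off assembled chromosomes were not assigned. Coordinates are counted from 1. Sites were searched as exact letters on both strands, and the search was tested on simulated sequences. Python 3.11.15, pandas 2.3.3, pysam 0.24.0 and matplotlib 3.10.9 were used. The members, the classes and the pathway list were chosen with earlier results of these data known. Every member was named with its strongest or closest peak, of the pathway list the 6 strongest and, chosen after their values were seen, Nfe2l1, Adrm1, Sem1 and those without a peak, except a few genes that are not reported here. Sequences were printed for the 3 highest folds, for peaks shared with a partner gene and for peaks with a RUNX core. Alternatives were a fold of at least 8, a p under 1e-20, other distances and TSS sets, and other forms of the sites.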

Additional observations from a re-analysis of the deposited data

How the results depend on the processing

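Of 47 alternative values, 34 stayed close to those reported (a count within 1.5 times, a share inside its exact Clopper-Pearson interval, a median fold inside the binomial interval of the reported median) and 13 did not. With peaks of fold at least 8 only, 17 genes were nearest to a peak (13.8% of all protein-coding genes were), 15 had one within 1 kb (12.6% of all), and there were 17 peaks with a median fold of 10.49. With a p under 1e-20 only, these were 15 genes (15.1% of all), 14 genes (14.9% of all) and 15 peaks with a median of 11.42. Fewer peaks enter by construction. The share of peaks with a RUNX core was 22.9% for TGTGGT only, 37.1% for TGCGGT only and 31.4% in the central 100 bp (21.3% of all peaks). No ETS site lay in the central 100 bp (0 of 35 peaks, 0.0%, against 1.4% of all peaks). The NFE2L element as TGACTCAGC only, chosen after seeing the data, was in 8.6%. Distance from the midpoint gave 27 genes and 33 peaks, protein-coding TSSs only gave 29 and 36, and predicted TSSs gave 29 and 35. No paired analysis was possible because the replicates were merged before peaks were called, and for the same reason no replicate could be left out. Depth limits which weak peaks were called, so a gene without a peak is one where none was detectable in this list.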

Other observations

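A closer form of the NFE2L element was chosen after its matches had been seen. The spelling TGACTCAGC was in 3 of the 35 peaks (8.57%), against 37 of 10490 (0.35%), and the 3 belong to the cap genes Psmd1, Psmd2 and Psmd7. Its centre lay 248, 243 and 247 bp downstream of the TSS, in that order, all in intron 1. Within 500 bp of a TSS, on either side, it was present at 5 of the 51 genes (9.8%), against 1.46% of all protein-coding genes. The others were Psma3 at 341 bp, which has a RUNX1 peak that the element is outside of, and Psmd12 at 199 bp, which has none within 1 kb. Psmd6 has TGACTCGGC, which differs in spelling, in its peak. These 4 sites are printed with the element in capitals, on the strand that reads it.
Psmd1 chr1:86064855-86064879 minus strand: acccgcccTGACTCAGCtaaacgcc
Psmd7 chr8:107588223-107588247 plus strand: cgcgcccgTGACTCAGCagccctgc
Psmd6 chr14:14120707-14120731 plus strand: taggccgcTGACTCGGCgctcgctg
Psmd2 chr16:20651883-20651907 minus strand: gccagcagTGACTCAGCccaaggcc

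Fold and p-value are coarse in the deposited list. Its 10490 placed peaks carry 1230 distinct pairs of the 2 values, and 31 of the 35 member peaks share their pair with at least 1 other peak. Equal values at 2 member genes, as at Psmd1 and Psmd2 or at Psme4 and Psmg1, occurred for 4 pairs of values.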
